A study of Mus musculus with 7 samples.

Results

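The windows described here are stretches of 10 kb of the mouse autosomes in which all 7 libraries of a hippocampal 5-hydroxymethylcytosine (5hmC) study had few reads. They number 2538 of 136617 eligible windows (1.86%). A window was eligible where its mean count over the 7 libraries was at least 10 reads and each of its 20 bins of 500 bp had a read in some library. Of the 247240 autosomal windows, 238994 met the count minimum, and the condition on bins brought these down to 136617. A window was called poor where its CPM, the count scaled to the library's autosomal total, lay below 0.67 times the median of the eligible windows in each of the 7 libraries. The ratio of a window's CPM to that median is called its relative level here.

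Unstressed C57BL/6 mice were the source of the hippocampal DNA, which was captured with an antibody against 5hmC and sequenced. It holds 3 libraries labelled WT and 4 labelled Tet2 CKO, which are titled TET2 knockout. The sources used here do not give age, sex or the driver of the conditional deletion, and all mice were unstressed. Coordinates are those of build mm9. No mm9 sequence or annotation was used here, so the windows are given without bases, genes or repeats, and Tet2 itself was not checked.

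The base 5hmC is made when TET dioxygenases, among them the product of Tet2, oxidise 5-methylcytosine. It is abundant in neurons, where it is known to gather along the bodies of active genes and at enhancers and to be scarce in silent chromatin. Antibody capture returns fragments by how many modified cytosines they hold, so DNA with few CpG dinucleotides or with little 5hmC at them gives few reads.

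Libraries held between 26134505 and 49414761 reads, and from 11146988 to 28885986 on the autosomes after the bins with a mean above 100 reads were left out. Tet2 CKO replicates 2 and 3 went from 39224160 and 49414761 reads to 11146988 and 12062783, and WT replicate 1 from 41988546 to 28885986. WT replicates 2 and 3 went from 27551216 and 29604828 to 12191637 and 14433675. Tet2 CKO replicates 1 and 4 went from 26134505 and 28969252 to 12551442 and 13946166. Tet2 CKO replicates 2 and 3 stand apart from the rest. Their 10 kb profiles correlated with each other at Pearson r = 0.828 across windows, which are not independent replicates, with WT replicate 1 at -0.036 and 0.009, and with the 4 other libraries at 0.263 to 0.371. The 5 libraries other than these correlated with each other at 0.662 to 0.703. Among bins with a read, between 71.7% and 83.6% held an even number of reads per library. The sources used here do not say whether both mates of a read pair were counted. Counting error is larger than independent reads would give.

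In the poor windows the typical signal was well under that of the eligible windows in every library. The median poor window held 44, 23 and 30 reads in WT replicates 1, 2 and 3, where the median eligible window held 134, 58 and 68. In Tet2 CKO replicates 1 to 4 it held 25, 12, 13 and 29 reads, against 60, 31, 33 and 66. The relative level of the median poor window was 0.328, 0.397 and 0.441 in WT replicates 1, 2 and 3, and 0.417, 0.387, 0.394 and 0.439 in Tet2 CKO replicates 1 to 4. The WT and Tet2 CKO values overlapped. These levels are what the rule chose by, so they are a description and carry no test.

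**Figure D1:**
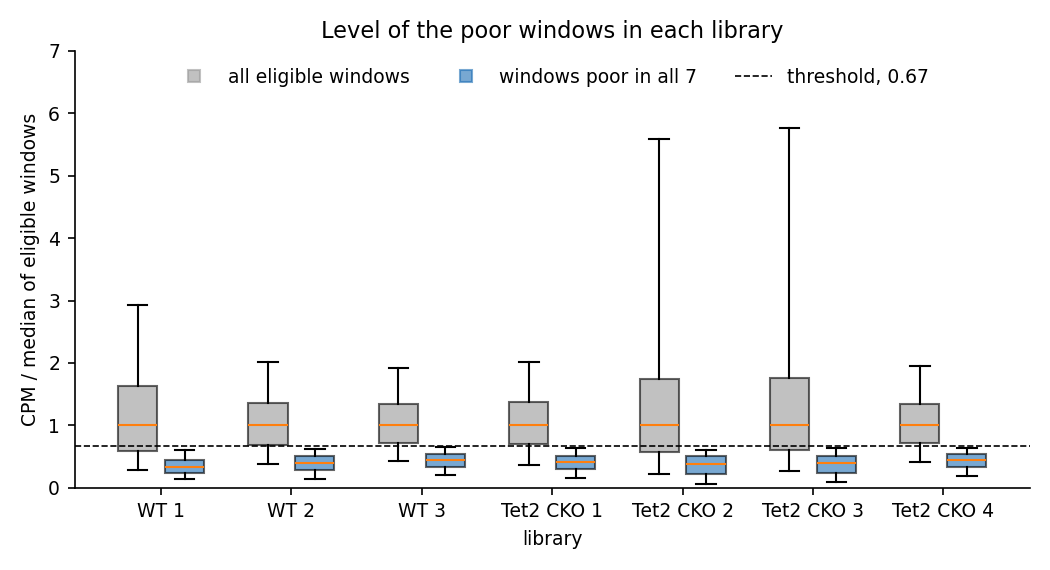
Relative level (CPM divided by the median CPM of the eligible windows of that library) in the 3 WT and 4 Tet2 CKO libraries, for all 136617 eligible windows (grey) and the 2538 poor windows (blue). Boxes span the 25th to 75th percentile with the median as a line, whiskers reach the 5th and 95th percentiles, and the dashed line is the threshold of 0.67. The eligible windows spread most in Tet2 CKO replicates 2 and 3, with 95th percentiles of 5.58 and 5.76, and the blue boxes lie below the dashed line because the rule placed them there.

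The members were low to differing degrees. Empty stretches could not enter, since the rule asks for a mean of 10 reads and a read in every bin. The mean relative level of a member over the 7 libraries ran from 0.196 to 0.604, with a median of 0.396 and quartiles at 0.346 and 0.443. Only 444 members had a mean under 0.33. A relative level under 0.33 in all 7 libraries was met by 6 members, and one under 0.5 in all 7 by 293. In 1338 members (52.7%) the highest library stood at 0.6 or more, near the threshold. A level of 0.6 or more was most frequent in Tet2 CKO replicate 4 (357 members) and WT replicate 3 (344), and least frequent in WT replicate 1 (135).

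Some libraries had no read at all in a poor window. This was so for 45 members in Tet2 CKO replicate 2, 34 in replicate 3, 2 in WT replicate 2 and 1 in Tet2 CKO replicate 4. In Tet2 CKO replicate 2 a count of 0 allows up to 3 reads, or 0.269 CPM, at 95% confidence, for the counting error of independent reads only. In that library 74.9% of the bins with a read held an even number, so this limit is probably too low. The threshold itself lay at only 20.8 reads in Tet2 CKO replicate 2 and 22.1 in replicate 3, against 89.8 in WT replicate 1.

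The members were thus a small end of a graded distribution. Of the eligible windows, 44288 (32.4%) were below the threshold in no library, 30548 (22.4%) in 1, 5008 (3.67%) in 6 and 2538 (1.86%) in all 7. At the edge of the rule, many windows had equal values because reads are whole numbers. Just inside, 216 members tied at a largest relative level of 0.667, and the first 3 by position lie on chromosome 1, at 47370001 to 47380000, 56400001 to 56410000 and 62490001 to 62500000. Each of these had 44 reads in Tet2 CKO replicate 4. Just outside, 12 windows tied at 0.672. The first 3 were at chromosome 1, 175360001 to 175370000 and 196630001 to 196640000, and at chromosome 16, 49930001 to 49940000, each with 90 reads in WT replicate 1.

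The lowest members were spread over several chromosomes. The lowest mean relative level, 0.196, was at chromosome 17, 3020001 to 3030000. It held 40, 12 and 13 reads in WT replicates 1, 2 and 3, and 14, 0, 5 and 19 in Tet2 CKO replicates 1 to 4. The next, at chromosome 15, 15300001 to 15310000, held 14, 14 and 4 reads in WT and 11, 10 and 19 in Tet2 CKO replicates 2, 3 and 4, with 6 in replicate 1. No library stood above a relative level of 0.299 in the first window or 0.355 in the second.

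On chromosome 14, both windows of the stretch from 98680001 to 98700000 were among the 6 lowest. The first held 30, 6 and 16 reads in WT and 6, 8, 5 and 26 in Tet2 CKO replicates 1 to 4. The second held 12, 9 and 14 reads in WT and 14, 12, 8 and 14 in Tet2 CKO. Their mean relative levels were 0.209 and 0.218. The 2 others of the lowest 6 were at chromosome 12, 20680001 to 20690000, with a mean relative level of 0.213, and chromosome 7, 33830001 to 33840000, with 0.218. On chromosome 7 the levels were uneven, from 0.0645 in Tet2 CKO replicate 2 to 0.455 in replicate 3.

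A library that took no part in the choice gives a measure apart from the rule. Windows were chosen on 6 libraries and read in the one left out. Of 2851 windows chosen without WT replicate 1, 89.0% were below the threshold in it, against 29.7% of all eligible windows. The shares were 81.5% of 3115 in WT replicate 2 and 79.3% of 3199 in WT replicate 3, against 22.6% and 20.2%. In Tet2 CKO replicates 1 and 4 they were 81.1% of 3129 and 77.0% of 3294, against 23.3% and 21.8%. Tet2 CKO replicates 2 and 3 gave the lowest shares, 67.9% of 3740 and 73.7% of 3446, against 30.9% and 30.3%. In each left-out library the median relative level of the windows chosen lay between 0.358 and 0.5. Eligibility still used all 7 libraries, and windows are not replicates, so no p is given.

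**Figure D2:**
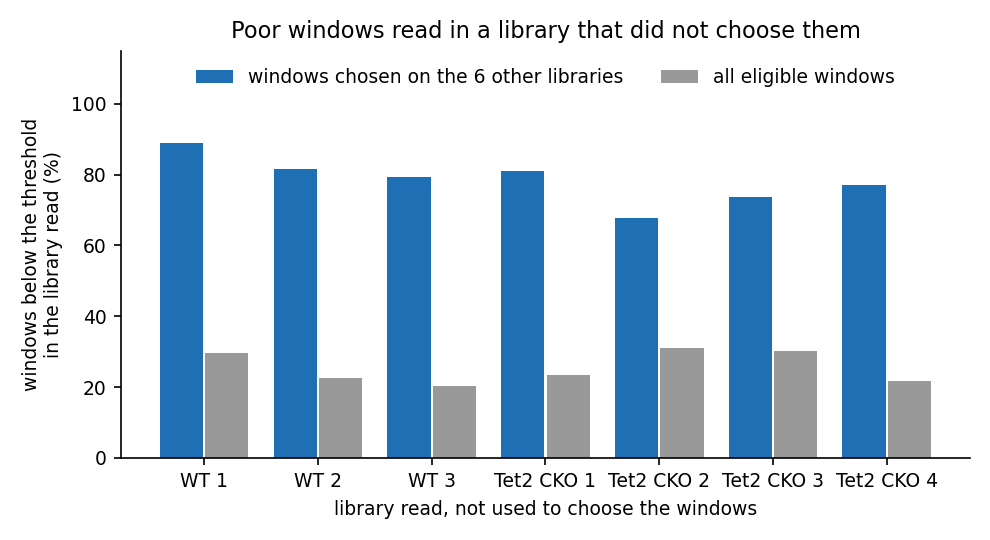
Share of windows below 0.67 times the median (vertical axis, percent) in each library (horizontal axis), for windows chosen on the 6 other libraries (blue) and for all eligible windows (grey). The blue bars run from 67.9% in Tet2 CKO replicate 2 to 89.0% in WT replicate 1, and each stands above its grey bar.

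The share fell when Tet2 CKO replicates 2 and 3 were read from the remaining libraries together. The 5 other libraries chose 7101 windows, and 48.5% and 52.7% of them were below the threshold in Tet2 CKO replicates 2 and 3, with median relative levels of 0.677 and 0.667. Of all eligible windows, 30.9% and 30.3% were below it there. In the other direction, Tet2 CKO replicates 2 and 3 chose 25843 windows. Between 32.3% and 35.8% of these were below the threshold in the 5 other libraries, where 20.2% to 29.7% of all eligible windows were. WT replicate 1 gave the smallest rise, to 32.3% from 29.7%.

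The choice carried over between genotypes too, apart from that contrast. Windows chosen on the 3 WT libraries numbered 12770. Of these, 75.2% and 70.2% were below the threshold in Tet2 CKO replicates 1 and 4, against 23.3% and 21.8% of all eligible windows. In replicates 2 and 3 the shares were 45.4% and 48.8%, against 30.9% and 30.3%. Windows chosen on the 4 Tet2 CKO libraries numbered 5283, of which 76.8%, 71.9% and 69.8% were below it in WT replicates 1, 2 and 3. The shares of all eligible windows there were 29.7%, 22.6% and 20.2%.

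The condition on bins decided which low windows became members. Among windows that met the count minimum, 16295 had a gap in coverage and were also below the threshold in all 7 libraries, far more than the 2538 members. The share below in all 7 rose as bins without a read became more frequent. It was 1.86% with all 20 bins read, 8.45% with 19, 16.7% with 18, 25.1% with 17 and 31.5% with 16. A bin without a read lowers the count of its own window, so part of this rise is built in. Mappability of these bins was not tested.

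The windows left out by that condition were themselves low in most libraries. Their median relative level was 0.358 in WT replicate 1 and between 0.533 and 0.576 in WT replicates 2 and 3 and in replicates 1 and 4 of Tet2 CKO. In Tet2 CKO replicates 2 and 3 it was 0.871 and 0.848. The members are thus poor against other fully covered windows. In WT replicate 1 the median window left out was nearly as low as the median member, which stood at 0.328.

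Reads inside a poor window lay about as widely as in other windows with the same number of reads. These other windows were all non-members with a mean count of at least 10. Unlike the members, they include windows left out by the condition on bins, so the comparison is not of like windows. In WT replicate 3, members with 29 to 31 reads had reads in 47.9% of their bins, and other windows with 29 to 31 reads in 44.7%. In Tet2 CKO replicate 2, members with 11 to 13 reads had reads in 23.7% of their bins, and other windows in 23.1%. The rule asks for a read in every bin in some library, which favours an even spread. The richest bin held a median of 20.7% of a member's reads in WT replicate 3 and 33.3% in Tet2 CKO replicate 2, against 25.8% and 33.3% in the other windows.

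Most poor windows stood alone. Of 2466 runs of neighbouring members, 2397 were single windows, 66 were pairs and 3 held 3 windows. Thus 141 members (5.56%) touched another member. That share depended on the condition on bins. Without the condition it was 32.3% with the medians kept, and 20.8% with them retaken over all windows of at least 10 reads. Rich windows were not counted without the condition. Windows rich in all 7 libraries, taken as those above 1.5 times the median in each, numbered 1747, and 20.0% of them touched another, with runs of up to 9 windows. The limit of 1.5 was chosen after the data were seen, and neighbouring windows are not independent, so these shares carry no test.

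Poor windows also had fewer eligible neighbours. Of the 5076 places directly beside a poor window, 40.6% held an eligible window, against 70.2% beside any eligible window and 88.6% beside a rich window. Of the 2059 eligible neighbours, 6.99% were poor, against 1.07% of the eligible neighbours of all eligible windows. None of the 2059 was rich, where 1.61% of the neighbours of all eligible windows were. Taken as independent, a count of 0 would allow a share of up to 0.146%. The neighbours are not independent, so that limit is too low.

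The 3 longest runs each covered 30 kb. On chromosome 6, 98420001 to 98450000, the run held 106, 54 and 71 reads in WT replicates 1, 2 and 3, and 64, 23, 19 and 99 in Tet2 CKO replicates 1 to 4. Its relative level was lowest in Tet2 CKO replicate 3, at 0.192, and highest in Tet2 CKO replicate 4, at 0.5. The run on chromosome 3, 109590001 to 109620000, held 153, 87 and 72 reads in WT and 69, 28, 36 and 82 in Tet2 CKO. The run on chromosome 2, 55280001 to 55310000, held 145, 63 and 84 reads in WT and 90, 38, 40 and 108 in Tet2 CKO. Its levels were the most even of the 3 runs, from 0.361 to 0.545.

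Of the 66 pairs, the lowest was the stretch on chromosome 14 given above, with a mean relative level of 0.214. The next were on chromosome 4, at 31630001 to 31650000 (0.280) and 49970001 to 49990000 (0.313). In the first of these Tet2 CKO replicate 3 was low, at 0.0909, and WT replicate 1 high, at 0.519.

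How far the low signal reached differed between libraries. Reads per bin were averaged over the 2397 single poor windows and set against the mean of all autosomal bins of the same library. More than 2.5 kb inside the edge the level was 0.245 in Tet2 CKO replicate 2 and 0.25 in replicate 3, and between 0.389 and 0.502 in the 5 other libraries. Just outside, within 2.5 kb of the edge, it was 0.746 and 0.727 in Tet2 CKO replicates 2 and 3. Between 5 and 10 kb outside it was 1.07 in both.

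In the other libraries the surroundings stayed low. Within 2.5 kb outside the edge they were at 0.516 in WT replicate 1 and between 0.694 and 0.731 in WT replicates 2 and 3 and in replicates 1 and 4 of Tet2 CKO. Between 10 and 20 kb outside, WT replicate 1 stood at 0.593 and the other 4 between 0.807 and 0.836. The inside values come from the rule. The outside bins did not enter it, other than that no neighbouring window was itself poor. Since the inside was chosen to be low in every library, a step at the edge follows from the rule and is no result. Tet2 CKO replicates 2 and 3 also had the fewest reads at the threshold, and the part of this in their step was not tested.

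**Figure D3:**
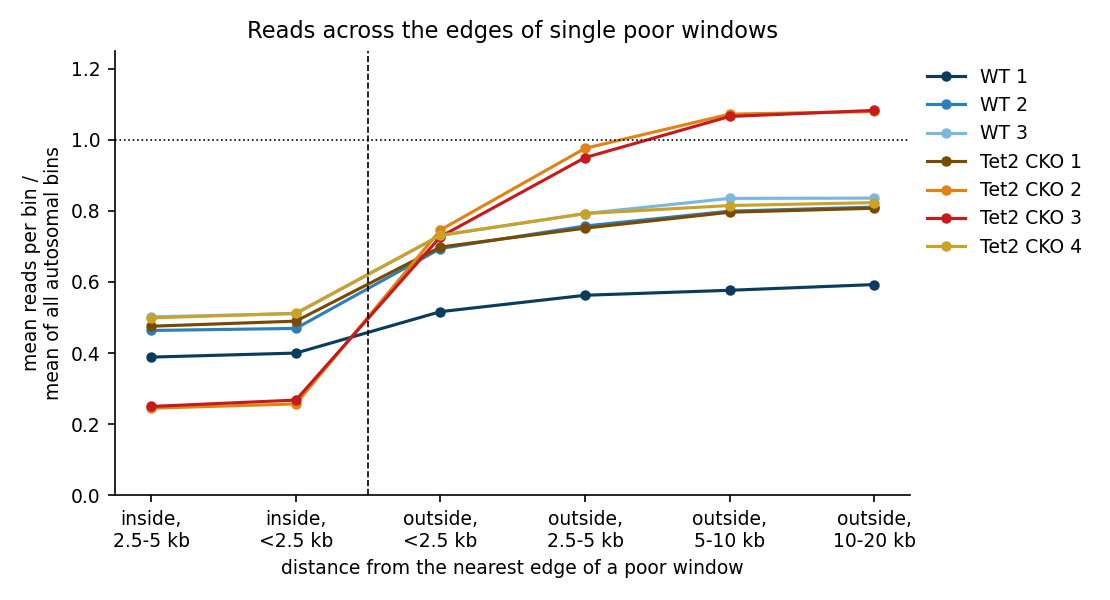
Mean reads per 500 bp bin relative to the mean of all autosomal bins (vertical axis) by distance from the nearest edge of the 2397 single poor windows (horizontal axis), in each of the 7 libraries. The dashed line is the window's edge. Tet2 CKO replicates 2 and 3 go from 0.257 and 0.268 just inside to 1.07 at 5 to 10 kb outside, while the 5 other libraries remain between 0.577 and 0.835 there.

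The grid itself was moved by 5 kb as an alternative chosen after the data were seen. The moved grid gave 2548 poor windows of 136567 eligible ones. Of the 2538 members, 576 (22.7%) overlapped a poor window of the moved grid. Of the 3069 eligible moved windows that overlap a member, 20.3% were poor, against 1.87% of all eligible moved windows. These windows share bins with the members, so the share is not independent of the rule.

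At longer range, eligible windows near a poor window were low in 5 libraries and close to the median in 2. At 10 kb the median relative level of eligible neighbours was 0.560 in WT replicate 1 and between 0.700 and 0.742 in WT replicates 2 and 3 and in replicates 1 and 4 of Tet2 CKO. In Tet2 CKO replicates 2 and 3 it was 0.935 and 0.909. At 500 kb WT replicate 1 stood at 0.731, and the other 4 were at up to 0.883. At 2000 kb the 5 libraries lay between 0.873 and 0.955. In Tet2 CKO replicates 2 and 3 the level was between 0.968 and 1.03 at every distance from 20 kb to 2000 kb that was measured. This closeness depended in part on eligibility. All windows with a mean count of at least 10 were also set against their own median. At 10 kb Tet2 CKO replicates 2 and 3 then stood at 0.862 and 0.839, and the 5 other libraries between 0.651 and 0.755. From 20 to 50 kb Tet2 CKO replicates 2 and 3 lay between 0.897 and 0.931.

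Around rich windows all libraries began above the median. At 10 kb the levels ran from 1.35 in Tet2 CKO replicate 2 to 2.22 in WT replicate 1. They came down to 0.968 and 1.00 in Tet2 CKO replicates 2 and 3 and to between 1.16 and 1.49 in the other libraries at 2000 kb. Near poor and near rich windows alike, WT replicate 1 lay farthest from the median at 10 kb and Tet2 CKO replicates 2 and 3 nearest.

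**Figure D4:**
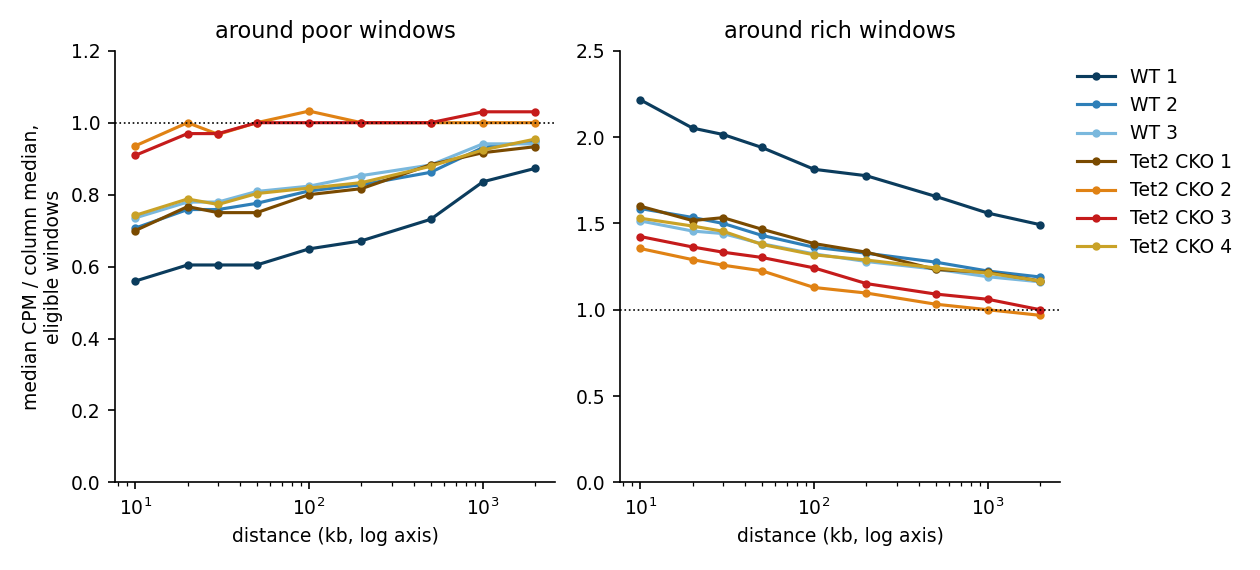
Median relative level of eligible windows (vertical axes) by distance in kb from a poor window (left) or a rich window (right), for each of the 7 libraries on a log distance axis. Around poor windows WT replicate 1 climbs from 0.560 at 10 kb to 0.873 at 2000 kb, and Tet2 CKO replicates 2 and 3 stay between 0.909 and 1.03.

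The share of eligible windows that were poor varied between chromosomes. It was highest on chromosome 12, with 160 of 6281 (2.55%), then on chromosome 3, with 187 of 7659 (2.44%), and chromosome 1, with 225 of 10169 (2.21%). It was lowest on chromosome 17, with 66 of 5574 (1.18%), chromosome 5, with 114 of 8931 (1.28%), and chromosome 9, with 105 of 7635 (1.38%). Chromosome 17 had the highest share of rich windows, 2.64%, and chromosome 3 the lowest, 0.640%. Chromosome 12 did not mirror its poor share, with 1.21% rich, close to the 1.28% over all autosomes. With the rule applied to the 5 libraries other than Tet2 CKO replicates 2 and 3, chromosomes 3 and 12 were again the highest, at 7.15% and 6.96%, and chromosome 11 the lowest, at 3.33%.

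**Figure D5:**
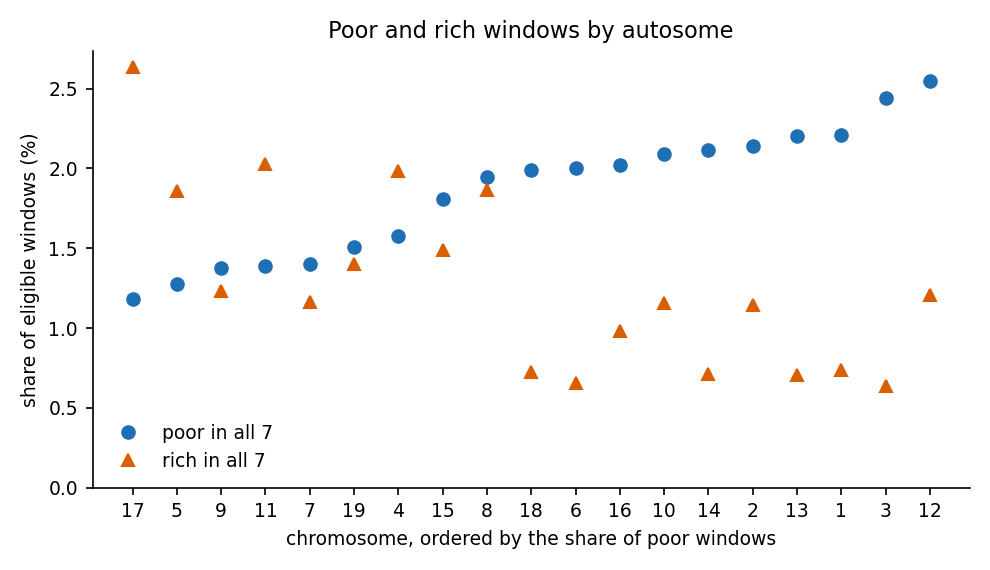
Share of eligible windows (vertical axis, percent) that were poor (circles) or rich (triangles) in all 7 libraries on each autosome, ordered by the poor share. Poor shares run from 1.18% on chromosome 17 to 2.55% on chromosome 12, and the rich share is highest on chromosome 17 and lowest on chromosome 3.

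Poor windows thinned out toward the far end of the chromosomes, counted from position 1 of the build. Each autosome was split into 10 parts of equal length. In the last part 159 of 17433 eligible windows were poor (0.912%), and in the part before it 251 of 16301 (1.54%). The share in the other 8 parts lay between 1.75% and 2.22%. In 16 of 19 autosomes the last part had a lower share than the rest. Rich windows were most frequent there, at 2.27% in the last part against 0.735% in the first. Without Tet2 CKO replicates 2 and 3 the poor share was 2.40% in the last part and 7.56% in the first. These shares are descriptions over windows that lie side by side, and base composition along the chromosomes was not tested.

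The study's comparison asks where 5hmC differs in the hippocampus of Tet2 CKO mice. In the poor windows no difference between WT and Tet2 CKO passed the threshold. All 253978 windows of the genome at or above a mean count of 10 were fitted together with edgeR's quasi-likelihood test, and none of the 2538 members was called at an adjusted p under 0.05 (lowest adjusted p = 0.369). At an unadjusted p under 0.05, 7 members were higher in Tet2 CKO and 32 lower. Over all windows tested these shares were 9.76% higher and 3.72% lower, over the eligible windows 5.9% and 5.62%, and over the members 0.276% and 1.26%. DESeq2 with a local dispersion trend gave an adjusted p to 2157 members and called 0, against 0.0945% of all windows higher and 0.0125% lower. At unadjusted p under 0.05 it had 13 members higher and 71 lower, against 15.1% and 7.11% of all windows. With default settings it gave none of the members an adjusted p.

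The rule removes any window that is high in some library, which limits how far the groups can differ within a member. The median SE of a member's log2 fold change was 0.54, against 0.51 over all windows. The small share of members past an unadjusted p can therefore not be read as steadiness between the genotypes. In the edgeR fit with a replicate block, 1 member was called higher and 22 lower, at shares of 0.0394% and 0.867%, where 12.6% and 9.58% of all windows were called. At unadjusted p under 0.05 the blocked fit had 3 members higher (0.118%) and 166 lower (6.54%), against 18.9% and 17.5% of all windows. The eligible windows leaned the same way, with 13.6% higher and 27.5% lower at unadjusted p, and 9.45% called higher and 15.8% lower. Without Tet2 CKO replicates 2 and 3, edgeR had 17 members higher and 18 lower at unadjusted p under 0.05, against 1.69% and 1.71% of all windows, and called 0.

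The members leaned slightly toward lower values in Tet2 CKO, as the eligible windows did. The median log2 fold change of Tet2 CKO over WT was -0.23 in the members, -0.28 in all eligible windows and 0.010 in all windows tested. Without Tet2 CKO replicates 2 and 3 it was 0.045 in the members, -0.11 in the eligible windows and -0.030 in all windows. The lean of the members was thus not seen without those libraries, while that of the eligible windows was smaller but kept its direction. Scaled by library size alone the medians were -0.69 in the members, -0.76 in the eligible windows and -0.52 in all windows. With that scaling 0 members were higher and 121 lower at unadjusted p under 0.05 in edgeR, against 0.308% and 4.93% of all windows. On CPM scaled by TMM factors the groups did not overlap, with Tet2 CKO lower, in 151 members (5.95%), against 5.05% of all windows and 7.3% of eligible windows. They did not overlap with Tet2 CKO higher in 21 members (0.827%), against 4.79% of all windows and 3.09% of eligible windows. On the CPM used by the rule the counts were 130 lower (5.12%), against 5.11% of all windows, and 13 higher (0.512%), against 4.33%.

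The reads of the poor windows, summed per library, showed the same overlap. As a share of the reads in eligible windows, the members held 0.521%, 0.687% and 0.756% in WT replicates 1, 2 and 3. They held 0.707%, 0.431%, 0.441% and 0.753% in Tet2 CKO replicates 1 to 4. The mean share was 0.655% ± 0.120 for WT (SD, n = 3) and, for Tet2 CKO, 0.583% ± 0.171 (SD, n = 4), a difference within the spread of both groups. The low values were those of Tet2 CKO replicates 2 and 3 and WT replicate 1.

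Among the members with the smallest p, the window at chromosome 11, 28490001 to 28500000, was the first of those higher in Tet2 CKO. It held 25, 4 and 8 reads in WT replicates 1, 2 and 3 and 32, 20, 18 and 40 in Tet2 CKO replicates 1 to 4. On CPM scaled by TMM factors the WT mean was 0.245 ± 0.135 (SD, n = 3) and the Tet2 CKO mean 0.920 ± 0.172 (SD, n = 4), with no overlap. The log2 fold change was 1.84 (SE 0.56), which was not past the threshold in edgeR (adjusted p = 0.369), and adjusted p was 0.0413 with the replicate block. Over all alternatives the adjusted p of this window ran from 0.0413 to 1.00.

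The next higher members were at chromosome 18, 52030001 to 52040000, and chromosome 17, 94670001 to 94680000. The first held 25, 6 and 12 reads in WT and 31, 12, 20 and 38 in Tet2 CKO. The second held 18, 4 and 10 reads in WT and 21, 12, 14 and 33 in Tet2 CKO. Their log2 fold changes were 1.44 (SE 0.55) and 1.51 (SE 0.61), and neither was past the threshold in edgeR (adjusted p = 0.369 for both).

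Of the members lower in Tet2 CKO, the window at chromosome 13, 77530001 to 77540000, had the smallest p. It held 56, 33 and 32 reads in WT replicates 1, 2 and 3 and 4, 4, 2 and 19 in Tet2 CKO replicates 1 to 4. Tet2 CKO replicate 4 was the highest of its group, but still below every WT library on the CPM scale. The TMM-scaled CPM had a WT mean of 0.932 ± 0.111 (SD, n = 3) and a Tet2 CKO mean of 0.226 ± 0.205 (SD, n = 4). The log2 fold change was -1.98 (SE 0.63), with edgeR adjusted p = 0.369, and 0.0103 with the replicate block. The blocked fit takes no genotype contrast from Tet2 CKO replicate 4. Its log2 fold change was -2.89, near the -2.87 of the fit without that library.

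The window at chromosome 6, 52500001 to 52510000, held 86, 33 and 45 reads in WT and 20, 11, 10 and 14 in Tet2 CKO. WT replicates 1 and 3 lay at 2.98 and 3.12 CPM, just under their thresholds of 3.11 and 3.16 CPM, and WT replicate 2 at 2.71 CPM, farther below its threshold of 3.19. The window at chromosome 10, 111660001 to 111670000, held 70, 32 and 40 reads in WT and 6, 7, 11 and 21 in Tet2 CKO. The log2 fold changes were -1.35 (SE 0.46) and -1.48 (SE 0.52), and edgeR gave adjusted p = 0.369 for both. With the replicate block the chromosome 10 window had adjusted p = 0.0339 in edgeR, and the chromosome 6 window was not called. These 6 windows were picked by p from the same libraries, and all 6 kept their direction in every alternative fit that tested them. In all 6 the groups did not overlap on TMM-scaled CPM, so leaving out libraries could hardly reverse them. The kept direction is thus largely built in and is no support.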

How the data were processed

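Raw read counts per 500 bp bin, not normalized, are what the authors deposited for the 7 libraries. The submitters' processing notes name Bowtie2, HOMER, DESeq2 and build mm9 without versions or roles. Antibody capture and sequencing are per the labels' protocols. No input library was analysed here, and no background was subtracted. Whether each library is a separate animal is not said in the labels, so p-values cover the spread between libraries, which may be technical.

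Of the 4944695 autosomal bins, 249 with a mean above 100 reads were left out, and the rest were summed by start to 10 kb. CPM used each library's autosomal total after that step, and medians were taken over the eligible windows. Every window with 20 covered bins also met the minimum mean of 10 reads. Counts over all chromosomes, high bins included, were fitted in R 4.3.3 with edgeR 4.0.16 (TMM, quasi-likelihood test, two-sided, Benjamini-Hochberg over 253978 windows), with DESeq2 1.42.0 as an alternative. Python 3.11.15, numpy 2.4.6 and pandas 2.3.3 gave the other values. The SE came from the F statistic. The fit was first tested on simulated data with a common dispersion and no split between libraries. That test does not cover the split of Tet2 CKO replicates 2 and 3 or the mostly even counts.

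Same-numbered WT and Tet2 CKO libraries deviated together (correlations of 0.548, 0.298 and 0.341 over 226979 windows, each above 0.1), so a blocked fit stands beside a result wherever its call changed. The pairing rests on the labels' numbers alone, since this check cannot tell the numbered pairs from other pairs. The link is not unique to the numbered pairs, since WT replicate 1 with Tet2 CKO replicate 4 correlated at 0.512, WT replicate 3 with Tet2 CKO replicate 2 at 0.358, and WT replicate 2 with Tet2 CKO replicate 3 at 0.284. Libraries were compared by chi-square, and the closest pair differed at 4.03 per degree of freedom, so none were merged.

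The members and lists were chosen with earlier results of these data known. Windows were named as the 6 longest runs (ties by lower level), the 6 lowest members, 3 on either side of the threshold, 3 with the smallest p in each direction, and the 3 chromosomes with the highest and lowest shares. Alternatives were other thresholds, count minimums and bin bounds, each library left out, other scalings, DESeq2 and the block. Annotation and base content were planned but left out, since no mm9 reference was used here.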

Additional observations from a re-analysis of the deposited data

Results flagged for a closer look

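In 2 of 36 sets of 4 Tet2 CKO values tested, a single library lay far from the others, and chance flags about 1 set in 20. The flags used CPM and were not tested on relative levels. Eligible windows had a median CPM of 2.78 and 2.74 in Tet2 CKO replicates 2 and 3, against 4.78 and 4.73 in 1 and 4. In the run on chromosome 4, 49970001 to 49990000, Tet2 CKO replicate 2 had 0.628 CPM per window, while replicates 1, 3 and 4 had 1.35, 1.28 and 1.29. As relative levels these were 0.283, 0.226, 0.470 and 0.273 in replicates 1 to 4, so replicate 3 was the one apart there. In the window on chromosome 13, 77530001 to 77540000, Tet2 CKO replicate 4 had 1.36 CPM, while replicates 1, 2 and 3 had 0.319, 0.359 and 0.166.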

How the results depend on the processing

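The number of poor windows was 293 at 0.5 and 6421 at 0.8 times the median. Without the condition on bins it was 18833 with the medians kept, and 9332, of which 674 were members, with the medians retaken over all windows of at least 10 reads. With the condition and those retaken medians it was 674. Without Tet2 CKO replicates 2 and 3 it was 7101, and with single libraries left out it ran from 2851 to 3740. The share touching another poor window was 1.37% and 10.7% at the thresholds of 0.5 and 0.8, 32.3% without the condition on bins with the medians kept and 20.8% with them retaken, 2.97% with the condition and retaken medians, 4.47% on the moved grid and 11.2% without Tet2 CKO replicates 2 and 3. It ran from 6.17% to 6.95% with single libraries left out. The median share of chosen windows below the threshold in the library left out was 79.3%, and 62.9% at the threshold of 0.5. The retaken medians with the condition, the kept medians without it, the moved grid and the choice without Tet2 CKO replicates 2 and 3 were added after the data were seen.

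Between the genotypes, 0 members were called in every edgeR fit except that with the replicate block. The blocked fit called 23, where 12.6% of all windows were called higher and 9.58% lower. At unadjusted p under 0.05 it had 3 higher and 166 lower, against 18.9% and 17.5% of all windows. In the main fit, members at unadjusted p under 0.05 numbered 7 higher and 32 lower, against 9.76% and 3.72% of all windows. By library size alone they were 0 higher and 121 lower, against 0.308% and 4.93% of all windows. With a minimum mean count of 20, 3 were higher, against 10.3% of all windows. Without Tet2 CKO replicates 2 and 3 they were 17 higher and 18 lower, against 1.69% and 1.71%. DESeq2 with a local trend gave 13 higher and 71 lower, against 15.1% and 7.11%. With single libraries left out, the higher count ran from 2 (WT replicate 2, Tet2 CKO replicate 4) to 10 (WT replicate 3), against 5.34%, 14.9% and 6.6% of all windows. The lower count was 14 without WT replicate 1, 20 without WT replicate 2 and 17 without WT replicate 3, against 0.807%, 2.93% and 3.24% of all windows. It was 78, 15 and 93 without Tet2 CKO replicates 1, 2 and 4, against 8.35%, 1.49% and 7.36%. Both the members' lower count and the share of all windows were lowest without WT replicate 1 and highest without Tet2 CKO replicates 1 and 4. The cause was not tested. With 12 or 13 reads in the median member, Tet2 CKO replicates 2 and 3 limit what a single window can show.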
